A study of Mus musculus with 12 samples.

Results

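The comparison sets ITNK cells against LAK cells. ITNK cells are induced T-to-natural-killer cells, grown from T cell precursors whose transcription factor gene Bcl11b was deleted. LAK cells are lymphokine-activated killers, which are natural killer (NK) cells grown in IL-2. The arrays were chosen by their titles, ITNK 1 to 4 and LAK 1 to 4, and make up 8 of the 12 samples. The other 4 are DN3 thymocytes, the CD4- and CD8-negative precursor stage from which ITNK cells were made, and they are given here only as context. By the labels the mice carry Bcl11b alleles flanked by loxP sites and Cre-ERT2, a Cre recombinase that tamoxifen activates. The protocols give 1 µM 4-hydroxytamoxifen for 48 h, in a T cell medium with Flt3 ligand and IL-7 at 5 ng/ml each, then culture of sorted DN3 cells on OP9-DL1 with IL-2 at 100 ng/ml, and collection at day 14. They name DN3 cells of Bcl11bCKO/CKO and Bcl11bCKO/+ genotype without saying which sample had which. A further step expands splenic cells, which the text calls ITNK, for 6 to 9 days in IL-2 at 1000 U/ml, while LAK cells are labelled as expanded in IL-2 with no dose or time of their own. OP9-DL1 is a stromal line that presents a Notch ligand. The same treatment text stands on all 12 samples, so the labels do not tell which steps the LAK and DN3 cells had, and no age of the animals is stated. The strain entries read C57B6 for ITNK, C57B8 for LAK and C57B7 for DN3 and were not used. The labels do not say whether replicate arrays hold RNA of different animals or cultures. A p-value here therefore covers the spread among these arrays alone, and that spread may be technical.

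NK cells kill by releasing perforin, which opens membranes, and granzymes, the proteases that enter the target cell. Mouse NK cells read their targets through paired activating and inhibitory lectin-like receptors of the Ly49, NKR-P1 and CD94/NKG2 families, which in part signal through adaptors such as DAP12. T cells recognise antigen through the T cell receptor, whose CD3 chains carry the signal. Bcl11b acts in the thymus to hold precursors in the T lineage, and T-lineage cells without it take on NK features.

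RNA was hybridised to Illumina mouse bead arrays. Between 12215 and 13141 of 45274 probes were above background (detection p under 0.01) on an ITNK array, against 11814 to 12670 on a LAK array. The median raw signal was 62.4 to 71.5 on ITNK arrays and 71.4 to 75.3 on LAK arrays. The number of arrays limits the precision. Values are log2 of the normalized signal, where background lies near 4.3, and levels of different genes are not compared with each other. All LAK arrays and ITNK 1 and 2 lay on slide 1, while ITNK 3 and 4 lay on slide 2 with the DN3 arrays, so each comparison was repeated within slide 1. The brightest Bcl11b probe read 9.10, 8.48, 8.38 and 8.39 on the 4 ITNK arrays, against 6.00, 6.01, 5.25 and 5.79 on the 4 LAK arrays, with a mean of 11.77 ± 0.24 in DN3 (SD, n = 4). ITNK therefore lay above LAK at this probe, by 2.83 (adjusted p = 7.51e-08). The other probes of Bcl11b were above background on 0 LAK arrays. They averaged 8.25 and 5.50 in ITNK, 4.35 and 4.38 in LAK, and 9.42 and 6.53 in DN3. The position of these probes within Bcl11b is not given in the sources used here, and their signals do not check the deletion. In RNA from a whole culture, fewer cells with a transcript and less transcript per cell cannot be told apart.

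Of 8100 genes tested, 2727 (33.7%) passed at an adjusted p under 0.05 in limma, 1458 (18%) higher and 1269 (15.7%) lower in ITNK. The share of higher genes among the calls was 53.5%, and 63.9% with median scaling in place of quantile normalization. At least 2-fold differences numbered 722 (8.91%), of which 444 (5.48%) were higher and 278 (3.43%) lower in ITNK. At 16-fold or more there were 18 genes higher and 14 lower. The median difference over all genes was -0.01, so any list below can be read against a centre at about 0. On detection alone, 242 genes were above background on all 4 ITNK arrays and on 0 LAK arrays, and 169 of these were also above background on all 4 DN3 arrays. The opposite pattern, 0 ITNK and all 4 LAK arrays, held for 88 genes, of which 8 were above background on all DN3 arrays and 60 on none. Another 6221 genes were above background on all arrays of both groups.

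The 2 ends of the scale held recognisable gene families. At the top stood the scavenger receptor Cd163l1 (6.58), the LIM domain protein Pdlim4 (at least 80.3-fold), the integrin chain Itgae (6.06), the T cell receptor associated membrane protein Trat1 (at least 62.7-fold), the myosin light chain Myl10 (5.86) and the growth factor binding protein Igfbp4 (at least 50.5-fold). At the bottom stood the Ly49 receptor genes Klra7 (at least 162-fold lower in ITNK), Klra4 (at least 79.1-fold) and Klra3 (at least 61.2-fold), with the granule protease genes Gzme (-6.36), Gzmd (-6.13), Gzmg (at least 56.8-fold) and Ctsg (at least 49.1-fold). Bounds are given where no array of the dimmer group was above background. They set the brighter mean against the lowest signal of a detected probe on each dim array, or the gene's own signal where that was higher.

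**Figure D1:**
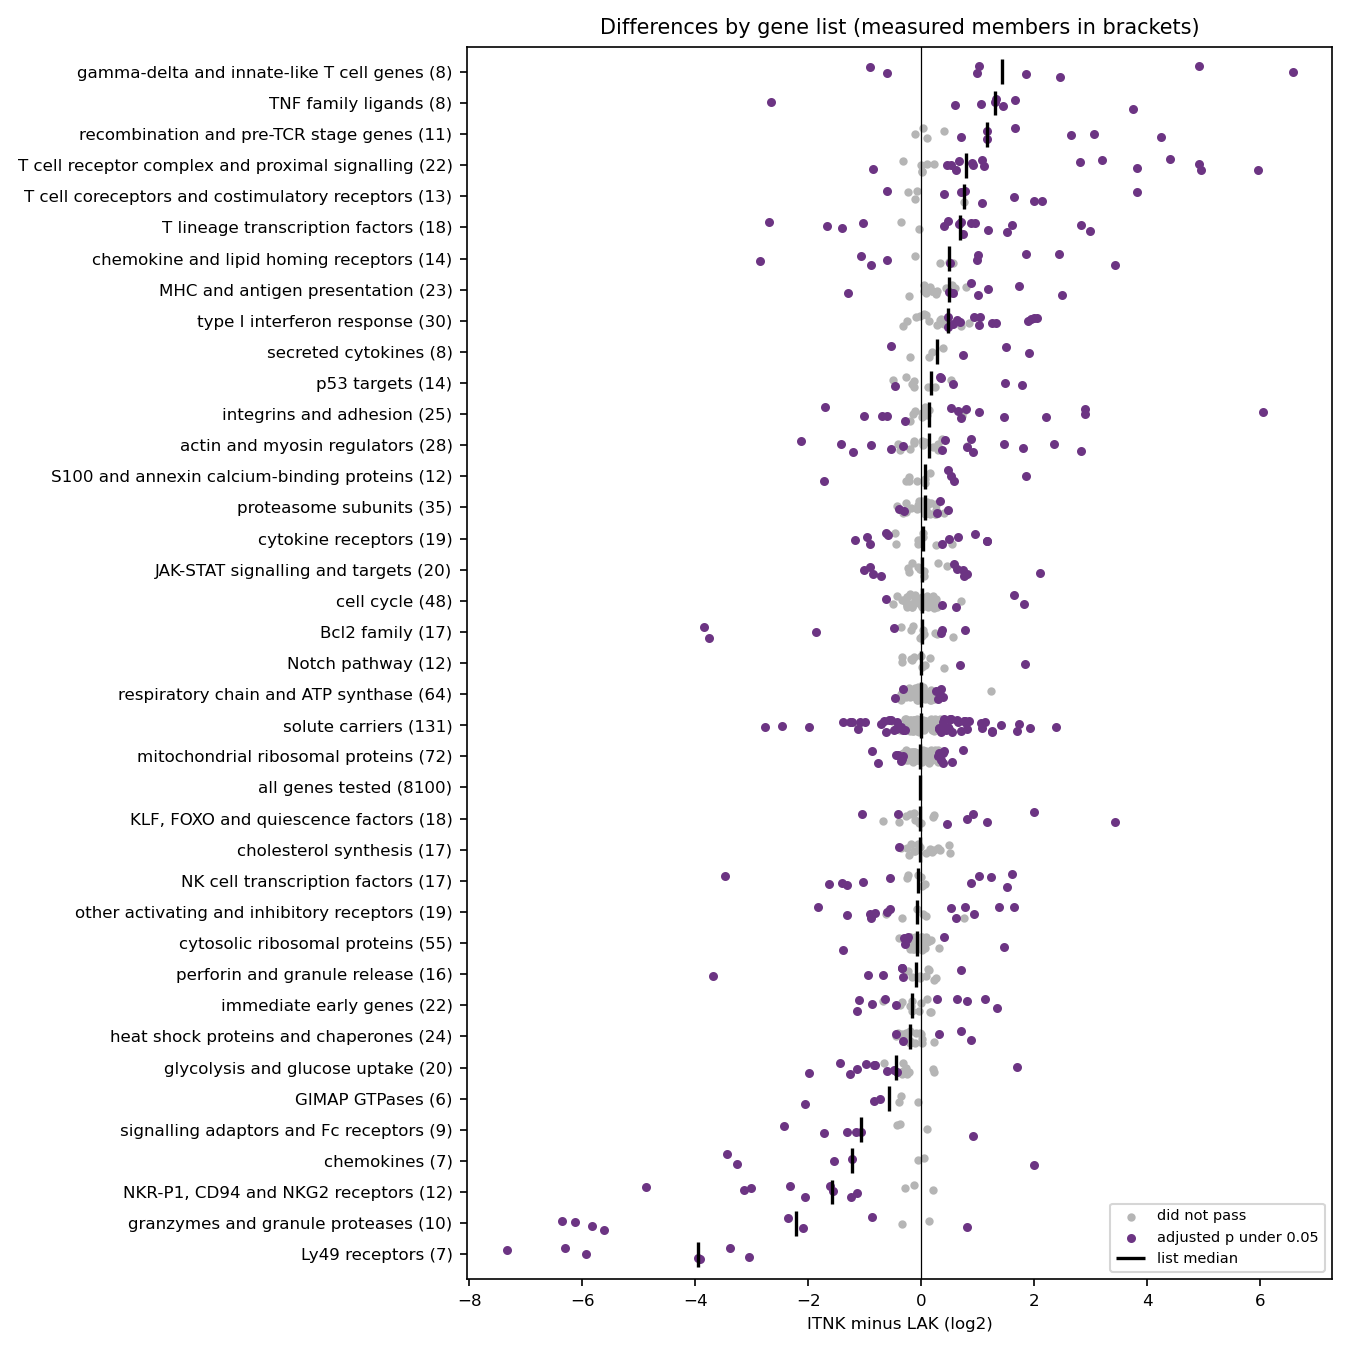
ITNK minus LAK differences (log2, horizontal axis) of the measured members of each gene list, ordered by the list median (black line), with members past the test in purple and the others in grey. Ly49 receptors lie lowest, with a median of -3.94 over 7 genes, and gamma-delta T cell genes highest, with a median of 1.44 over 8, while the lists of housekeeping machinery cluster near 0.

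The receptors that NK cells use to read their targets were the most uniformly lower set. Of 13 annotated Ly49 genes 7 were measured. All 7 were lower in ITNK and did not overlap between groups (median -3.94). They were above background on all 4 LAK arrays and on no ITNK array. They thus passed the detection filter through LAK, so the direction of this count was largely set by the filter. Over all genes 14.7% had every ITNK array below every LAK array. Klra7, encoding an inhibitory Ly49 receptor for MHC class I, read 4.59, 4.43, 4.59 and 4.72 in ITNK, against 11.98, 12.39, 11.38 and 11.93 in LAK (adjusted p = 4.63e-11). Each ITNK value lies at background and every LAK value lies far above it. The other members were at least 79.1-fold (Klra4), 61.2-fold (Klra3), 15.4-fold (Klra1), 14.8-fold (Klra8), 10.5-fold (Klra16) and 8.13-fold (Klra10) lower. Klra8 encodes Ly49H, the activating receptor for a cytomegalovirus protein. Ly49 genes resemble each other closely, and a probe of one may bind transcripts of another, so the identity of single members is uncertain.

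Among the NKR-P1, CD94 and NKG2 genes 9 of 12 were lower in ITNK and 0 higher (median -1.58). Klrg1, an inhibitory receptor of mature NK cells, read 4.44, 4.36, 4.55 and 5.26 in ITNK, against 8.96, 9.19, 9.90 and 10.04 in LAK, a difference of -4.87 (adjusted p = 1.88e-09). Only the fourth ITNK array was above background for it. Klrb1c, the NK1.1 antigen, was detected on every array of both groups at 5.59 ± 0.23 in ITNK and 7.65 ± 0.18 in LAK (SD, n = 4 each), a difference of -2.06 (adjusted p = 2e-08). Klrk1, the activating receptor NKG2D, was lower by a smaller step, -1.14. The others that passed were Klrb1b (-3.13), Klre1 (-3.02), Klri1 (-1.62), Klrb1a (-1.55), Klrb1f (-1.24) and Klri2, at least 4.99-fold lower. Klrd1, the CD94 chain that pairs with NKG2 proteins, read 11.94, 11.87, 11.78 and 11.62 in ITNK, against 12.05, 12.10, 11.71 and 11.82 in LAK. Its arrays overlapped and the difference was -0.12 (adjusted p = 0.69), while DN3 averaged 7.38 ± 0.51. The products of Clec2d (-0.28) and Clec2i (0.21) are ligands of NKR-P1 receptors. Neither passed, though Clec2d did without ITNK 1 (adjusted p = 0.0494) and Clec2i without ITNK 4 (adjusted p = 0.0336).

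Receptors of other families went both ways. Of 19 measured, 6 were higher and 7 lower in ITNK (median -0.07). Ctla4, an inhibitory T cell receptor, was higher by 1.65 and Cd160, found on NK and intraepithelial lymphocytes, by 1.38. Havcr2 (TIM-3) was lower by 1.83 on the log2 scale and Lilrb4a, an inhibitory Ig-like receptor, differed by -1.30. Among 9 adaptors and Fc receptor genes 5 were lower and 1 higher (median -1.07). Tyrobp, which encodes the DAP12 adaptor of activating Ly49 receptors, was at 9.76 ± 0.17 in ITNK and 10.83 ± 0.20 in LAK (SD, n = 4 each), a difference of -1.07 (adjusted p = 0.000119). Sh2d1b1 (EAT-2), an adaptor of SLAM receptors in NK cells, was lower by 2.42, Fcgr3 (CD16) differed by -1.31 and Sh2d2a by -1.15, and the EAT-2 relative Sh2d1b2 was at least 3.3-fold lower. Cd247, the zeta chain shared by CD3 and Fc receptors, was higher by 0.92. Differences in Fcer1g (-0.42) and Zap70 (0.10) did not pass.

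**Figure D2:**
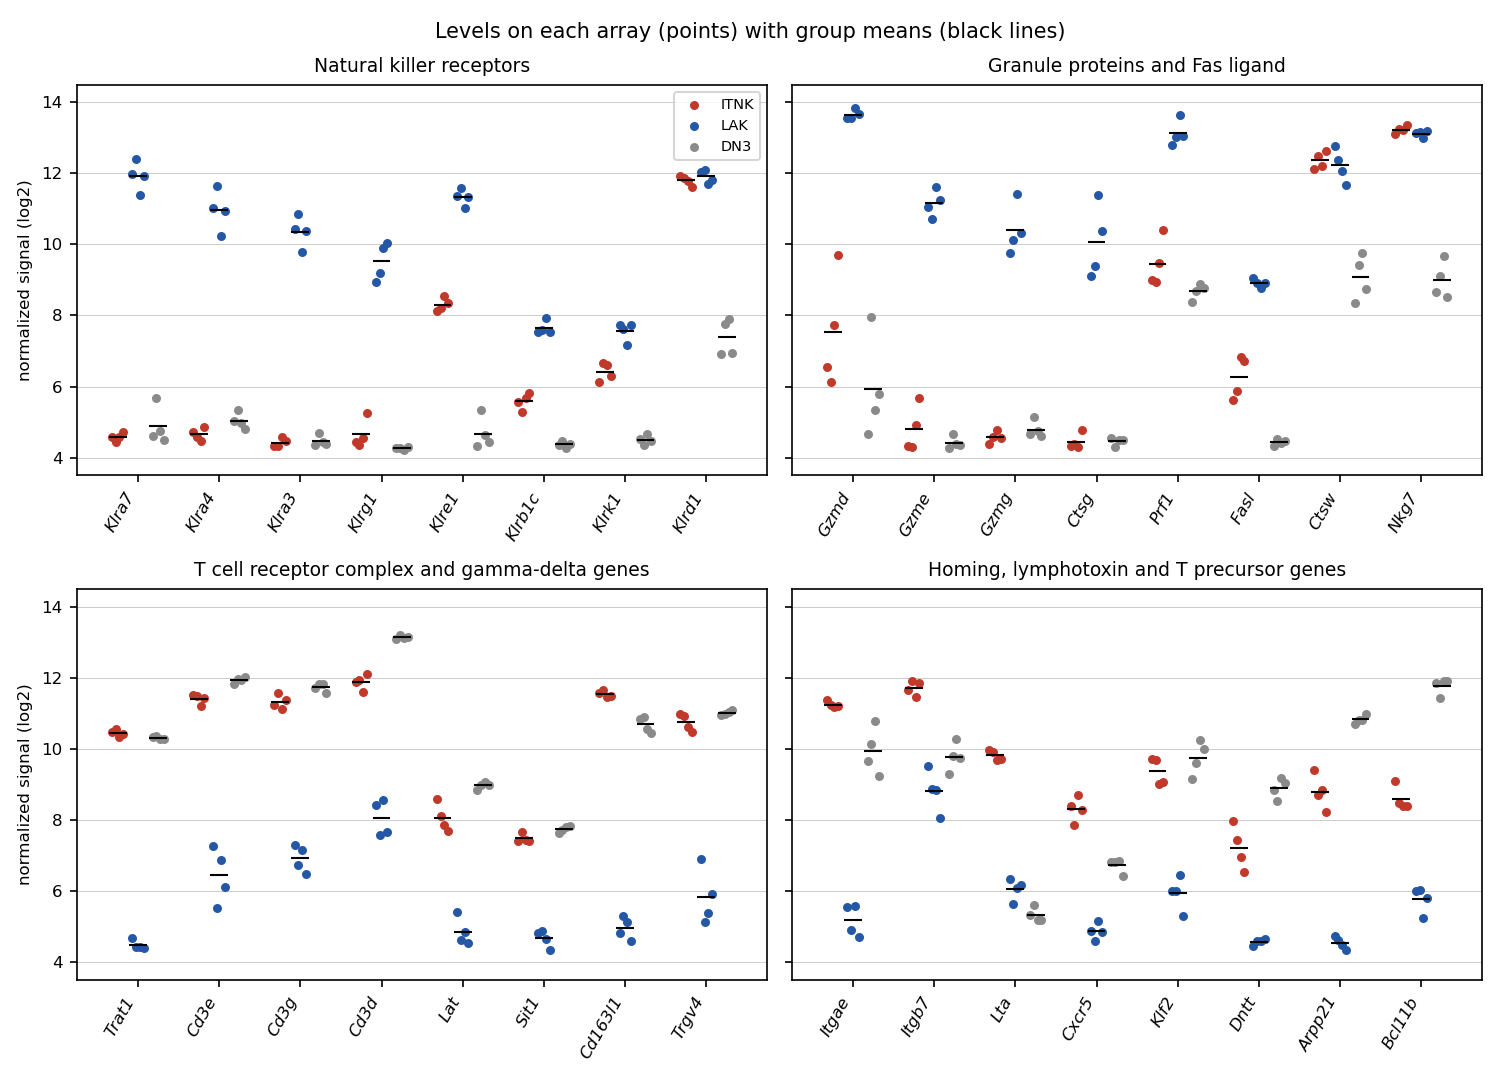
Normalized signal (log2, vertical axis) of 32 genes on each array, with ITNK in red, LAK in blue and DN3 in grey, and black lines for group means. Ly49 genes and Ctsg sit at background in ITNK and far above it in LAK, while Klrd1, Ctsw and Nkg7 overlap between ITNK and LAK. Trat1, Cd3e and Cd3g sit near the DN3 level in ITNK, and Cd3d and Lat sit below it.

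Of 10 granzymes and granule proteases 7 were lower and 1 higher in ITNK (median -2.22). Of the 10, 4 were above background on all LAK arrays and no ITNK array, so they passed the detection filter through LAK. The promoters of Gzmd, Gzme and Gzmg are shown because these neighbouring genes gave the largest differences of the class and are close copies. Capitals mark TGTGGT or its reverse complement ACCACA, the core letters of sites bound by RUNX factors (sequences from RefSeq, GRCm38.p6, 5′ to 3′ on the minus strand).
Gzmd, chr14:56132544-56132843: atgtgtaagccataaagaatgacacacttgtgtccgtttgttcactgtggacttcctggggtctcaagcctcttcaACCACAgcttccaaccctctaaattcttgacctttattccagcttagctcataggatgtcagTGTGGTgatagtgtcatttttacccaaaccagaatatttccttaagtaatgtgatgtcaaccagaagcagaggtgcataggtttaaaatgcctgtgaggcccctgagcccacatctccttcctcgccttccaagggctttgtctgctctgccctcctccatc
Gzme, chr14:56120576-56120875: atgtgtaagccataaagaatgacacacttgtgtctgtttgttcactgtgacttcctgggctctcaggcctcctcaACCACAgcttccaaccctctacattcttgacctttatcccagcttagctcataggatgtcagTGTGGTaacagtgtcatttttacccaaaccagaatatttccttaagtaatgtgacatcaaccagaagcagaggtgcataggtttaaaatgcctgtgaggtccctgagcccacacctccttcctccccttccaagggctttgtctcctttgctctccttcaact
Gzmg, chr14:56159530-56159829: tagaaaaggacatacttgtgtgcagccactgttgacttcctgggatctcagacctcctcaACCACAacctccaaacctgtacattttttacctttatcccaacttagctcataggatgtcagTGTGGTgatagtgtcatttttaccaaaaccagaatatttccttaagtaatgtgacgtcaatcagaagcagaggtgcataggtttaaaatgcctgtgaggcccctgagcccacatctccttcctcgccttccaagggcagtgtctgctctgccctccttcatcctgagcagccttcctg
Aligned end to end, the Gzmd and Gzme promoters were identical at 93.4% of positions, Gzmd and Gzmg at 81.3%, and Gzme and Gzmg at 80.4%. Each holds 2 matches to the capital letters, which 16.9% of 27025 promoters of this length hold at least once on either strand. A match describes the letters and is not evidence of binding. With copies this close, which gene a probe reads is uncertain.

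Gzmd read 6.54, 6.13, 7.72 and 9.69 in ITNK, against 13.55, 13.54, 13.84 and 13.66 in LAK (difference -6.13, SE 0.71, adjusted p = 1.29e-05). The LAK values are tight, while the ITNK values spread widely and the fourth lies far above the first 2. Without ITNK 4 the Gzmd difference was -6.85. Gzme read 4.32, 4.31, 4.91 and 5.69 in ITNK, against 11.06, 10.73, 11.61 and 11.25 in LAK (difference -6.36, adjusted p = 4.12e-10). Only the fourth ITNK array was above background for it. Gzmg and Ctsg (cathepsin G) were above background on 0 ITNK arrays and lower by at least 56.8-fold and 49.1-fold. The same held for Gzmk, at least 5.11-fold lower, and Gzmn, at least 4.21-fold lower. Serpinb6b, a protease inhibitor, was lower by 0.86. Ctsc, the protease that activates granzymes, was the 1 member higher in ITNK (0.80). Gzmm (-0.33) and cathepsin W, Ctsw (0.14), did not pass, though Gzmm did without ITNK 4 (adjusted p = 0.0399). The probe of Gzmb was not above background on any of the 12 arrays, which says nothing about its transcript.

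Prf1, the gene of perforin, read 8.99, 8.95, 9.47 and 10.40 in ITNK, against 12.79, 13.04, 13.64 and 13.06 in LAK, a 12.8-fold difference (-3.68, SE 0.27, adjusted p = 1.47e-07). At this probe, the brightest, all ITNK arrays lie below all LAK arrays, and ITNK 1 and 2 lie near the DN3 mean of 8.68 ± 0.21. Another probe of Prf1 averaged 6.49 in ITNK, 10.97 in LAK and 4.54 in DN3, so by its means ITNK lay above DN3. Most of the 16 genes of granule release were closer to each other, with 6 lower, 1 higher and a median of -0.09. The share that passed, 43.8%, was near the 33.7% of all genes. Stx11, a syntaxin needed for granule fusion, was lower by 0.93, Cst7, an inhibitor of cathepsins, differed by -0.67, and Unc13d, which primes granules, by -0.35, a call lost with median scaling (adjusted p = 0.0668). The granule membrane protein Nkg7 read 13.11, 13.24, 13.21 and 13.37 in ITNK, against 13.13, 13.17, 12.99 and 13.18 in LAK (difference 0.11, adjusted p = 0.691), and overlapped. Differences in Rab27a (0.14), Stxbp2 (-0.17), Lamp1 (0.09) and Vamp8 (-0.01) did not pass.

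Effector molecules other than granule proteins divided by family. Of 8 TNF family ligands 7 were higher in ITNK and 1 lower (median 1.32), and none overlapped. Over all genes 31.8% did not overlap between the groups. Lta, lymphotoxin alpha, read 9.95, 9.89, 9.67 and 9.72 in ITNK, against 6.32, 5.63, 6.09 and 6.17 in LAK, a 13.5-fold difference (3.76, adjusted p = 2.23e-10). Ltb, its membrane partner lymphotoxin beta, was higher by 1.66 and Tnf by 1.31. Tnfsf13b (BAFF), a B cell survival factor, was at least 2.73-fold higher. Tnfsf11 (RANKL), Tnfsf14 (LIGHT) and Tnfsf10 (TRAIL) were higher by 1.32, 1.06 and 0.60. Fasl, the Fas death ligand, was the exception at 5.62, 5.87, 6.83 and 6.72 in ITNK, against 9.06, 8.91, 8.77 and 8.91 in LAK (difference -2.66, adjusted p = 4.37e-07).

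Chemokines were mostly lower, 4 of 7 lower and 1 higher (median -1.22). Ccl3 and Ccl4, chemokines released by activated NK cells, differed by -3.44 (SE 0.27) and -3.27 (SE 0.33). Ccl5 was lower by 1.54 (adjusted p = 0.0223), with LAK arrays at 8.83, 10.67, 8.68 and 10.24 in 2 pairs of levels. Ccl5 did not pass without ITNK 1, ITNK 3, LAK 2 or LAK 4 (adjusted p of 0.0503 to 0.0735), nor within slide 1 (adjusted p = 0.0919). Cxcl9, an interferon-induced CXCR3 ligand, was at least 4.01-fold higher in ITNK, at 6.92, 5.20, 8.21 and 5.93, so its ITNK arrays varied more than most. Xcl1, lymphotactin, overlapped at 12.20 ± 0.51 in ITNK and 12.26 ± 0.51 in LAK (SD, n = 4 each; adjusted p = 0.926). Interferon gamma, Ifng, the main cytokine of NK cells, read 7.65, 7.58, 8.76 and 8.40 in ITNK, against 7.79, 8.0, 7.37 and 7.71 in LAK (difference 0.38, adjusted p = 0.215). ITNK 1 and 2 lie inside the LAK range and ITNK 3 and 4 above it. Csf2 (0.14) did not pass either. Tgfb3 and Lif were at least 3.74-fold and 2.84-fold higher in ITNK, Osm was higher by 0.75 and Tgfb1 was lower by 0.52.

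Transcription factors of NK cells were 5 higher and 6 lower of 17 (median -0.06). Irf8, which drives myeloid and NK programmes, read 5.95, 5.66, 5.67 and 6.43 in ITNK, against 9.05, 9.26, 10.00 and 9.32 in LAK (difference -3.48, adjusted p = 4.02e-08). The T-box factors Tbx21 (T-bet) and Eomes, which direct NK maturation, were detected on all arrays and lower in ITNK by 1.63 (SE 0.21) and 1.31 (SE 0.20). Ikzf3 (Aiolos) was lower by 1.40 and Hhex was lower by 1.03.  On the other side, Tox, needed for early NK and T cell development, was higher by 1.62, Irf1 by 1.02 and Gata3 by 0.88. Ikzf2 (Helios) and Id3 were at least 2.88-fold and 2.28-fold higher. Id2, an inhibitor of E proteins that NK cells need, averaged 10.62 ± 0.18 in ITNK and 10.68 ± 0.19 in LAK (SD, n = 4 each; adjusted p = 0.776), though the mean of its probes passed at -0.41 (adjusted p = 0.0115). Ets1 (0.07), Irf2 (0.01) and Rora (-0.26) did not pass.

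T cell receptor genes made the opposite case to the Ly49 genes. Of 22 genes of the receptor complex and its proximal signalling 15 were higher in ITNK and 1 lower (median 0.79). Promoters of the 3 CD3 genes, which lie close together, are shown because all of them differed by more than 3 log2 units. Capitals mark CANNTG, the E-box to which E proteins bind (RefSeq, GRCm38.p6, 5′ to 3′).
Cd3e, chr9:45009562-45009861, minus strand: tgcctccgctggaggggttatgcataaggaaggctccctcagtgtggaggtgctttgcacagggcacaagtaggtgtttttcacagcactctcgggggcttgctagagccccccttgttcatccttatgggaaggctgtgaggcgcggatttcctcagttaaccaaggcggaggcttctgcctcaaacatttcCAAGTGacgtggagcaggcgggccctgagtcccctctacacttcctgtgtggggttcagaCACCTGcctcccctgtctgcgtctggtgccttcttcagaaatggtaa
Cd3d, chr9:44981536-44981835, plus strand: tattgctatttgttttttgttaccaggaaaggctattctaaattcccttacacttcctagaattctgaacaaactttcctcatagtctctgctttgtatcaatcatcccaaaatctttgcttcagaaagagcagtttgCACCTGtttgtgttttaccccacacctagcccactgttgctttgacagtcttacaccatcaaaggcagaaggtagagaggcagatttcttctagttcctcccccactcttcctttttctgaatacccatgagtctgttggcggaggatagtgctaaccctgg
Cd3g, chr9:44980382-44980681, minus strand: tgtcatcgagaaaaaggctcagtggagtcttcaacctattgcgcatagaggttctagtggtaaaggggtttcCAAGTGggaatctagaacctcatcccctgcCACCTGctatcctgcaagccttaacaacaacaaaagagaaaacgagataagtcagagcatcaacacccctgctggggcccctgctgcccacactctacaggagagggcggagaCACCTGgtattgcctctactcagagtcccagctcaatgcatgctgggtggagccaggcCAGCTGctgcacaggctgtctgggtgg
They hold 2 (Cd3e), 1 (Cd3d) and 4 (Cd3g) such matches, and 72.1% of all 27025 promoters hold at least 1. CANNTG reads the same on both strands. None of the 3 holds TGTGGT or ACCACA. Between them 49.3% to 52.7% of aligned positions were identical.

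Cd3e read 11.50, 11.49, 11.21 and 11.43 in ITNK, against 7.27, 5.53, 6.86 and 6.12 in LAK (difference 4.96, SE 0.27, adjusted p = 6.45e-09). Cd3g and Cd3d were higher by 4.41 and 3.82. In DN3 the 3 genes averaged 11.93 ± 0.07, 11.73 ± 0.13 and 13.14 ± 0.05. LAK arrays were not empty of these transcripts: Cd3e, Cd3g and Cd3d were above background on all 4, and highest on LAK 1 and 3. The coreceptor chain Cd8b1 read 11.01, 11.26, 10.26 and 10.43 in ITNK, against 8.26, 5.49, 7.59 and 6.37 in LAK, again highest on LAK 1 and 3 (difference 3.81, adjusted p = 1.6e-05). These are values of its brightest probe. Another probe of Cd8b1 differed by 2.28. A further one, above background on all arrays of both groups, averaged 8.77 in ITNK and 8.65 in LAK and did not pass. Trat1, a transmembrane adaptor that associates with the receptor, read 10.48, 10.54, 10.33 and 10.41 in ITNK and was at background in LAK (at least 62.7-fold, adjusted p = 1.76e-14). The DN3 mean of 10.31 ± 0.05 was close to that of ITNK. Lat, the scaffold below the receptor, was higher by 3.21, and the inhibitory adaptor Sit1 at least 7-fold. Themis, needed in thymocyte selection, was at least 2.13-fold higher. Smaller differences were those of Cd6 (1.08), Cd2 (0.91) and the kinase Prkcq (0.68). The phosphatase Ptpn22 was the 1 member that was lower (-0.85). Lcp2 (0.01) and Skap1 (0.02) did not pass. Coreceptors and costimulatory receptors were 8 higher and 1 lower of 13 (median 0.75), led after Cd8b1 by Cd27 (2.15) and Cd7 (2.00).

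Markers of the T lineage were all higher in ITNK, 8 of 8, with a summed linear signal of 22560 to 24150 in ITNK and 8109 to 9470 in LAK. The NK markers summed to 13590 to 15440 in ITNK and 21050 to 25120 in LAK, with 6 of 9 lower and Itga2 (CD49b) at least 1.58-fold higher. In DN3 these sums were 35320 to 36440 and 991 to 1652. Thy1, higher in ITNK by only 0.71, made up most of the T lineage sums in ITNK and LAK. Nkg7 and Klrd1, neither of which passed, made up most of the NK sums in ITNK. The sums therefore say little about the other markers. By detection, all 8 measured T lineage and all 9 measured NK markers were above background on at least 1 ITNK array. On LAK arrays this held for 8 of each set. ITNK RNA thus carried transcripts of both sets, and LAK RNA was not free of T lineage transcripts. The NK marker Ncr1 was not above background on any array.

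Genes of precursor stages were in part above the LAK level. Of 11 recombination and pre-TCR genes 7 were higher and 0 lower (median 1.16). Dntt, the terminal transferase that adds nucleotides at receptor joints, read 7.97, 7.42, 6.95 and 6.53 in ITNK and was at background in LAK (at least 6.26-fold). Rag1, of the recombinase, was at least 2.23-fold higher, at 6.18, 5.75, 4.95 and 5.20 in ITNK, against 4.35, 4.40, 4.33 and 4.36 in LAK. Both genes lie lower on ITNK 3 and 4 than on ITNK 1 and 2. Arpp21, a thymocyte RNA-binding protein, and the surface antigen Ly6d were at least 19-fold and 3.17-fold higher. Cpa3, a carboxypeptidase of mast cells and early progenitors, was higher by 3.06, Il2ra by 1.17 and Slc6a13 by 0.71, while Kit (0.04), Hes1 (0.40) and Cdkn1b (-0.10) did not pass, and Ptcra, the pre-TCR alpha chain, was above background in neither group. Mast cell markers summed to 1100 to 1797 in ITNK and 910.7 to 1447 in LAK, with Cma1 at least 2.21-fold lower in ITNK. Kit, at 9.98 in ITNK and 9.94 in LAK, made up most of these sums. The part of mast cells in the Cpa3 difference was not tested.

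T lineage transcription factors were 12 higher and 4 lower of 18 (median 0.69). Besides Bcl11b they included Sox4, at least 7.7-fold higher, Runx1, at least 1.63-fold higher, Tcf12 (HEB, 1.18), Ets2 (0.95), Satb1 (0.74) and Lef1 (0.67). Mef2c was above background on no ITNK array and at least 6.45-fold lower, and Gfi1 was lower by 1.67. In the Notch pathway 2 of 12 were higher and 0 lower (median 0.01). These were the Notch target Dtx1, at least 3.41-fold higher, and the receptor Notch1 (0.68). The other pathway members, among them Hes1, Maml1 (0.16), Notch3 (-0.34) and Myc (-0.15), did not pass.

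Genes linked to gamma-delta and innate-like T cells held the largest difference among genes higher in ITNK. Of 8 measured, 6 were higher and 2 lower (median 1.44, or 1.38 with genes at their bounds). Cd163l1, a scavenger receptor of gamma-delta T cells, read 11.55, 11.65, 11.46 and 11.47 in ITNK, against 4.81, 5.30, 5.13 and 4.58 in LAK, a 95.6-fold difference (6.58, SE 0.15, adjusted p = 1.87e-12). The ITNK arrays are tight, and DN3 lay lower at 10.69 ± 0.21.
Trgv4, a variable segment of the gamma chain, was higher by 4.92, to a level of 10.74 ± 0.24 in ITNK, beside 5.82 ± 0.78 in LAK and 11.01 ± 0.05 in DN3 (SD, n = 4 each). Trgv5 read 6.70, 5.70, 7.60 and 6.87 in ITNK and was at background in LAK (at least 5.22-fold), and Trgv7 was at least 2.03-fold higher. The kinase Blk was at least 3.31-fold higher and the oxysterol receptor Gpr183 higher by 0.99. Il2rb, the beta chain of the IL-2 and IL-15 receptors, was lower by 0.90 and Etv5 was lower by 0.61.

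Homing and adhesion genes included several of the widest differences. Itgae (CD103), the integrin alpha chain that holds lymphocytes in epithelia, read 11.36, 11.22, 11.18 and 11.20 in ITNK, against 5.54, 4.91, 5.58 and 4.70 in LAK (difference 6.06, adjusted p = 1.09e-09). Its partner chain Itgb7 read 11.64, 11.92, 11.47 and 11.84 in ITNK, against 9.51, 8.86, 8.84 and 8.04 in LAK (difference 2.90, adjusted p = 1.04e-06). Both lay above LAK without overlap, and the DN3 means were 9.95 ± 0.66 and 9.77 ± 0.41. In the whole list of 25 integrin and adhesion genes 10 were higher and 5 lower (median 0.14). The tetraspanin Cd81 was at least 7.16-fold higher, and Cd63 and Icam2 were higher by 2.21 and 1.47. Itga1 (CD49a) was at least 3.23-fold lower, and Itgav and Itga5 differed by -1.01 and -0.60. Differences in Cd44 (0.02), Cd69 (0.10) and Itgb1 (-0.14) did not pass. Of 14 homing receptors 6 were higher and 4 lower (median 0.50). Cxcr5, the receptor that leads cells to B cell follicles, read 8.40, 7.85, 8.70 and 8.26 in ITNK, against 4.87, 4.60, 5.16 and 4.85 in LAK (difference 3.43). Cx3cr1 and Ccr8 were above background on all ITNK arrays and on no LAK or DN3 array, and Cx3cr1 was at least 5.28-fold higher. Cxcr4 was at least 3.6-fold higher. The leukotriene receptor Ltb4r1 was lower by 2.86 and Ccr2 was lower by 1.07, while S1pr4 (0.34) and Gpr34 (-0.11) did not pass.

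Cytokine receptors went both ways. Of 19 measured 6 were higher and 5 lower (median 0.03). Il7r was higher by 1.17 and Tgfbr1 by 0.95. Il12rb2, of the IL-12 receptor, was lower (-1.17), as was Il10ra (-0.96). Il27ra (-0.06), Ifngr2 (0.03) and Il15ra (-0.06) did not pass. Among 20 JAK-STAT genes 6 were higher and 4 lower (median 0.02), with Jak1 counted as lower by its brightest probe. The feedback inhibitor Socs3 was at 8.89 ± 0.20 in ITNK and 6.79 ± 0.18 in LAK (SD, n = 4 each; adjusted p = 7.37e-08), Socs2 was higher by 0.81 and Socs1 by 0.76. The kinase Jak3, which binds the common gamma chain, was lower by 0.85, Tyk2 was lower by 0.71 and Pim3 was lower by 1.02. The probes of Jak1 passed in opposite directions, so its direction is not settled.

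In the Bcl2 family 3 were higher and 4 lower of 17 (median 0.01). Bcl2a1b read 5.51, 4.42, 5.72 and 5.92 in ITNK, against 8.87, 9.31, 9.54 and 9.24 in LAK (difference -3.85), and its near-identical copy Bcl2a1d was lower by 3.75. Both encode A1, an anti-apoptotic protein, and the probes may read either copy. Bcl2l2 (Bcl-w) was lower by 1.86, while Bcl2 (0.06), Mcl1 (-0.01) and Bcl2l11 (0.04) did not pass. Of 18 KLF, FOXO and quiescence genes 6 were higher and 2 lower (median -0.02). Klf2, which governs lymphocyte traffic and quiescence, read 9.71, 9.67, 9.02 and 9.06 in ITNK, against 5.99, 6.00, 6.46 and 5.28 in LAK (difference 3.43, adjusted p = 2.59e-07). Pik3ip1, an inhibitor of PI3 kinase, was higher by 1.99 and Klf13 by 0.91, while Foxp1 (0.21) did not pass. Among 14 p53 targets 5 were higher and 1 lower (median 0.18), led by Trp53inp1 (1.78) and Gadd45a (1.49). The shares that passed were 41.2% of the Bcl2 family, 44.4% of the quiescence list and 42.9% of the p53 targets, near the 33.7% of all genes. Cdkn1a (-0.49) and Mdm2 (-0.13) did not pass.

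Interferon response genes were higher where they differed. Of 30 measured 14 were higher and 0 lower (median 0.47), against 18% higher over all genes. Ifit3, an antiviral protein, read 7.48, 7.07, 7.86 and 7.56 in ITNK, against 5.04, 5.07, 6.13 and 5.51 in LAK (difference 2.05), and Isg15 was higher by 1.90. The interferon-inducible GTPases Gbp2 and Igtp were higher by 1.99 and 1.95, and Rsad2 was at least 2.5-fold higher. Ifit2 (-0.02), Stat2 (0.06), Ddx58 (-0.08) and Parp14 (0.13) did not pass. In antigen presentation 7 were higher and 1 lower of 23 (median 0.50), and the 34.8% that passed is close to the 33.7% of all genes. The class II loading genes H2-Oa and H2-DMa were higher by 2.50 and 1.74 and the peptide transporter Tap2 by 1.18. H2-Ab1, a class II chain itself, was lower (-1.29), a call lost when any one of ITNK 1 to 2 or LAK 2 to 4 was left out (adjusted p of 0.0503 to 0.0756), or without background correction (adjusted p = 0.0769). It was also lost with normexp background correction, the authors' values, no detection filter or the mean of its probes (adjusted p of 0.0682 to 0.0953). The other probes of H2-Ab1 differed by -0.40 and -0.63 and did not pass. The class I genes H2-K1 (0.08), H2-D1 (0.28) and B2m (0.05) did not pass.

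Glycolysis was the one metabolic list with a clear lean. Of 20 genes 10 were lower and 1 higher (median -0.45), against 15.7% lower over all genes. The glucose transporter Slc2a3 read 8.11, 8.14, 8.42 and 8.54 in ITNK, against 9.61, 10.46, 10.75 and 10.29 in LAK (difference -1.98, adjusted p = 4.53e-06). Slc2a1 was lower by 1.27. The phosphofructokinases Pfkp (-1.43) and Pfkl (-0.97), with Eno3 (-1.13), Pgk1 (-0.84) and Aldoa (-0.81), were lower too. Slc2a6, another hexose transporter, was the member that was higher (1.69), and Pdk1 (-0.33) and Tpi1 (-0.22) did not pass.

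Most of the basic machinery gave few calls. In the cell cycle 4 were higher and 1 lower of 48 (median 0.01), in the respiratory chain 5 and 2 of 64, among cytosolic ribosomal proteins 2 and 5 of 55, among mitochondrial ribosomal proteins 8 and 7 of 72, and among proteasome subunits 3 and 2 of 35. These shares lie below the 33.7% of all genes. Cholesterol synthesis had 1 of 17 lower, and chaperones 3 higher and 2 lower of 24. Within the cell cycle list the G1 cyclin Ccnd1 was at least 3.14-fold higher and E2f2 higher by 1.82, while the proliferation genes Top2a (0.10), Mcm2 (0.02) and Plk1 (-0.19) did not pass. Solute carriers passed in 51 of 131 (38.9%), close to the share of all genes, with 30 higher, 21 lower and a median of 0.002. The transporter Slc16a5 led on the higher side, at least 4.96-fold. Immediate early genes were 5 higher and 5 lower of 22 (median -0.15), with Batf3 (1.35) and Fos (1.14) higher and the phosphatase Dusp2 lower (-1.14). Of 6 GIMAP GTPases 3 were lower, led by Gimap7 (-2.06). The cytoskeletal list had 9 higher and 6 lower of 28, with Marcks (2.84), Actn1 (2.35) and vimentin, Vim (1.46), higher and the motor Myo6 lower (-2.12). S100 and annexin genes were 4 higher and 1 lower of 12, with S100a4 higher by 1.85 and Anxa3 lower (-1.72). Against the 33.7% of all genes, 45.5% of the immediate early and 41.7% of the S100 and annexin genes passed. The shares were 50% for the GIMAP and 53.6% for the cytoskeletal list.

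Several of the most different genes stood outside the functional lists. On the higher side were Drc1, a dynein regulator, Tubb2b, a tubulin, and Bgn, the matrix proteoglycan biglycan and one of the stromal markers, at least 29-fold, 23.6-fold and 25-fold, with Fam169b (5.17), the peptidase Dpp4 (4.62) and the glycosyltransferase B3gnt8 (4.26). B3gnt8 differed from the others in that DN3, at 5.39 ± 0.35, also lay low. On the lower side were Speer3 (-5.31), Bdh2 (-4.41) and Samd3 (-3.96), and, at background on all ITNK arrays, Speer1, Cd55, Cstdc4, Tmem119 and Rasd2, at least 32-fold, 31.9-fold, 24.6-fold, 17.1-fold and 15.5-fold lower. Cd55 is a complement regulator of the cell surface. Cstdc4, a cystatin-like gene, read 6.71, 9.43, 10.94 and 9.00 on the LAK arrays. Tmem119 read 7.07, 8.63, 10.39 and 8.25 and Speer3 9.01, 10.60, 11.92 and 10.95 on the same arrays. In each of these LAK 1 is lowest and LAK 3 highest, so LAK levels varied by several fold while every LAK array stayed above ITNK. With ITNK values at background, the fitted Cstdc4 difference of -4.62 became -5.39 without LAK 1 and -3.98 without LAK 3, and that of Tmem119 moved to -3.50 without LAK 3 (-4.10 with all arrays).

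A group of 44 genes was above background on all 4 ITNK arrays and on no LAK and no DN3 array. They were led by Fxyd4, a regulator of the sodium pump, at least 13.6-fold higher than LAK (8.53, 8.01, 8.23 and 7.84 in ITNK). After it came Otof, a vesicle fusion protein, at least 7.5-fold, the non-coding RNA Miat, at least 7.3-fold, the ion channel Trpm6, at least 6.79-fold, and the ISG15-conjugating enzyme Ube2l6, at least 5.43-fold. Kir3dl2, an Ig-like receptor gene, was at least 4.87-fold higher. For each gene named here every ITNK array lay above the LAK range.

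Markers of other cell types were measured beside these results. Of 8 measured stromal marker genes 7 were higher in ITNK, against 18% of all genes. Their summed linear signal was 954.5 to 1402 in ITNK, 170 to 172.7 in LAK and 1438 to 4663 in DN3. None of the 8 was above background on any LAK array. They thus passed the detection filter through ITNK and DN3 arrays alone, and the LAK sum is one of background signals. Bgn, Cxcl12 (at least 11.1-fold) and Timp3 (at least 7.76-fold) led, while Col1a1 did not pass and the collagens Col1a2 and Col3a1 and the matrix gene Lum were above background on 0 of 12 arrays. The part of stroma in genes higher in ITNK, Igfbp4 among them, was not tested. Hba-a1, a haemoglobin chain, was at 8.56 ± 0.45 in ITNK and 5.03 ± 0.37 in LAK (SD, n = 4 each), with Alas2 above background on 0 arrays. The B cell marker Cd79b was at least 3.86-fold higher in ITNK, with Ms4a1 and Pax5 above background on 0 arrays. The myeloid markers summed to 57.02 to 68.94 in ITNK and 79.09 to 143.8 in LAK, with Cd14 at least 2.56-fold lower in ITNK and Lyz2, Mpo and Itgam above background on 0 arrays.

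The comparison within slide 1, which sets ITNK 1 and 2 against the 4 LAK arrays, kept the direction of all 2727 calls and of all 722 at least 2-fold calls. It had 1857 calls, 1018 (12.6%) higher and 839 (10.4%) lower, and shared 1732 with the comparison over all arrays. Of the 722 at least 2-fold calls 708 also passed within slide 1, and 28 fell under 2-fold. The typical shift among them was 0.11 log2 units, and the largest, 1.18, was that of Gzmd, whose difference was -6.13 over all arrays and -7.31 within slide 1. The list medians moved little: that of the Ly49 genes was -4.0 within slide 1, that of the granule proteases -2.33 and that of the T cell receptor list 0.79. Of the genes named here as passing, Aldoa, Asns, Batf3, Ccl5, Eif4ebp1, Etv5, Osm, Pfkl, Pgk1, Tnfsf10 and Unc13d did not pass within slide 1, each in the same direction (adjusted p of 0.0524 to 0.172). With slide as a term in the model 2246 genes (27.7%) passed, and Aldoa, Asns, Ccl5, Gpr183, Osm, Tnfsf10 and Unc13d did not (adjusted p of 0.0593 to 0.109). Fcer1g passed within slide 1 (-0.71, adjusted p = 0.0329) and Gzmm with the slide term (-0.69, adjusted p = 0.0228).

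**Figure D3:**
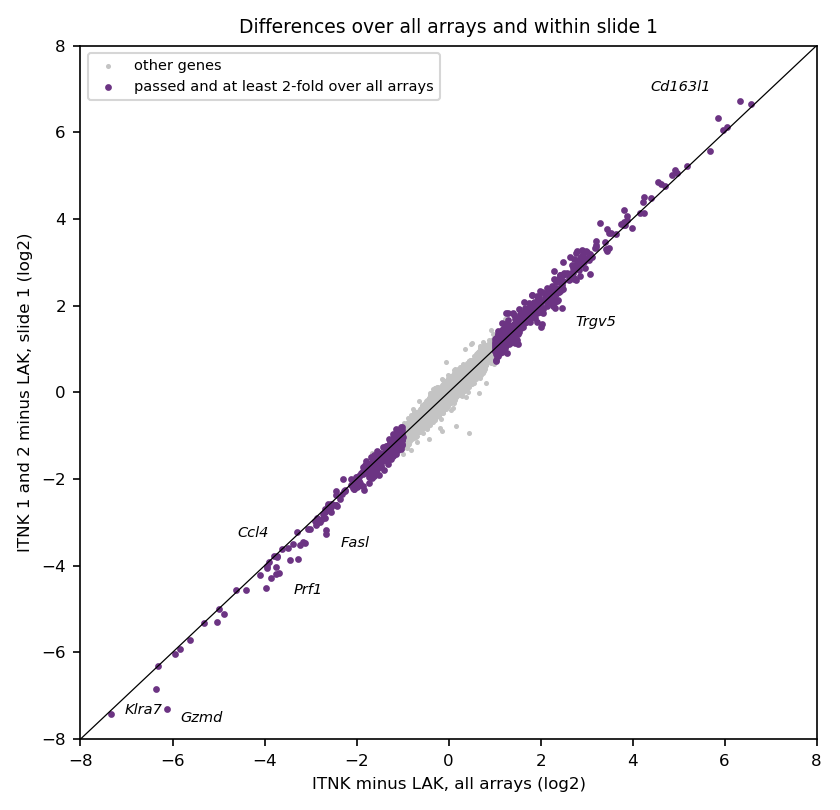
ITNK minus LAK differences (log2) of each gene over all arrays (horizontal axis) and within slide 1 (vertical axis), with the 722 genes at least 2-fold different in purple and the line of equality in black. Points follow the line over the whole range, and Gzmd, Prf1, Ccl4 and Fasl lie below it, with lower ITNK levels on slide 1.

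Between ITNK arrays on the 2 slides 25 genes differed by at least 1 log2 unit, 15 higher and 10 lower on slide 2, and 90% of genes lay between -0.41 and 0.40. Several of the 15 are effector genes. Gzmd differed by 2.37, Ccl4 by 1.17, Fasl by 1.03, the signalling adaptor Scimp by 1.22 and Samd3 by 1.10. Samd3 read 4.70, 4.85, 5.83 and 5.92 in ITNK, against 9.63, 9.48, 8.85 and 9.17 in LAK. On these genes ITNK 3 and 4 lay closer to LAK than ITNK 1 and 2 did. Among the 10 genes lower on slide 2 were Endou (-1.20), Cacna1d (-1.02) and Pld4 (-1.03), each of which was higher in ITNK than in LAK. Endou read 8.43, 8.14, 6.89 and 7.28 in ITNK, against 4.62, 4.27, 4.26 and 4.41 in LAK. ITNK 3 and 4 differ from ITNK 1 and 2 in slide and possibly in culture or animal, which cannot be told apart.

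**Figure D4:**
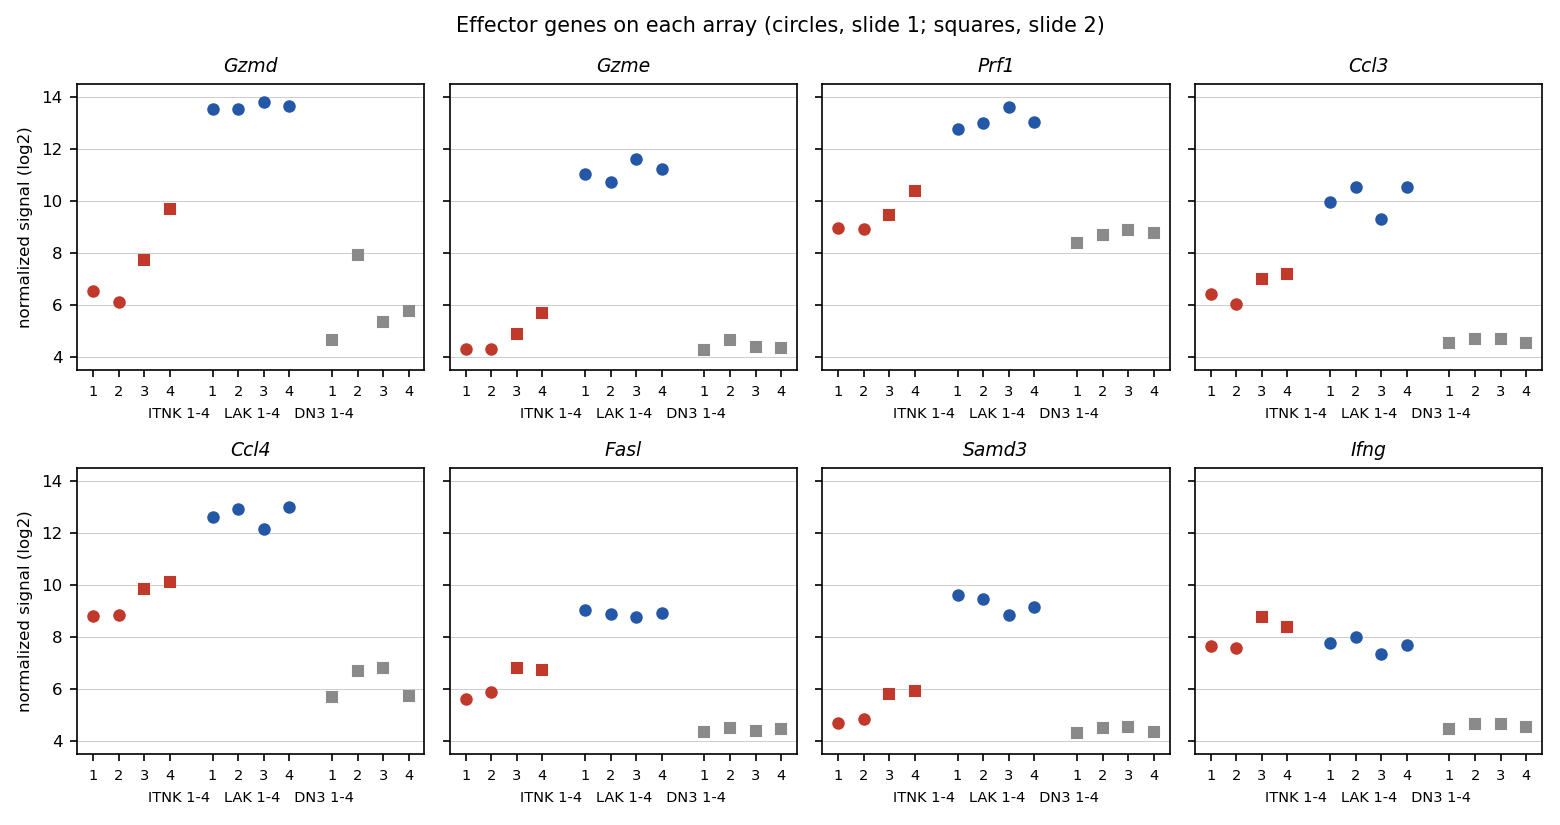
Normalized signal (log2, vertical axis) of 8 effector genes on each array, ITNK in red, LAK in blue, DN3 in grey, with circles for slide 1 and squares for slide 2. For all genes shown ITNK 3 and 4 lie above ITNK 1 and 2, and only for Ifng do ITNK arrays reach the LAK range.

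The ITNK arrays also split in a way that did not follow the slides. In 18 genes the gap between the pair ITNK 1 and 3 and the pair ITNK 2 and 4 was at least 1 log2 unit. With 1 and 2 set against 3 and 4 there were 6 such genes, and with 1 and 4 set against 2 and 3 there were 3. Such splits were not particular to ITNK. In DN3, 26 genes split with 1 and 4 set against 2 and 3, and the other pairings gave 4 and 2. In LAK the pairings gave 2 to 6 genes. Of the 18, 14 were higher on ITNK 2 and 4, and 10 of these belong to the response to amino acid shortage, in which the factor ATF4 raises amino acid synthesis and transport. Chac1, which degrades glutathione, read 6.98, 9.58, 6.09 and 9.47 in ITNK, against 8.56, 9.80, 10.69 and 9.69 in LAK. Asns, asparagine synthetase, read 8.52, 10.41, 8.58 and 10.34 in ITNK, against 10.24, 10.61, 11.17 and 10.52 in LAK. Trib3, a pseudokinase of the same response, read 7.78, 10.10, 6.75 and 9.80 in ITNK, against 7.35, 8.65, 9.88 and 8.02 in LAK. In all 3 genes ITNK 2 and 4 lie at least 1.76 log2 units above ITNK 1 and 3, and LAK 3 is the highest of the LAK arrays. A list of 24 measured genes of this response was written after the split was seen and holds those 10 genes. Of its other 14 members 13 were higher on both ITNK 2 and 4 than on ITNK 1 and 3, with a median difference of 0.855. Over all 8100 genes 1663 (20.5%) were higher on both. As the list was chosen with the split known, its count is no independent support for the split. Compared with LAK, 6 of the 24 passed, a smaller share than the 33.7% of all genes. All 6 were lower in ITNK, among them Eif4ebp1 (-1.86), Slc7a3 (-2.45) and Asns (-1.17), where 15.7% of all genes were lower. Chac1 (-1.66) and Trib3 (0.13) did not pass. The call of Asns was lost when any one of ITNK 1 and 3 or LAK 2 to 4 was left out (adjusted p of 0.0512 to 0.0937), and Chac1 passed without ITNK 2, ITNK 4 or LAK 1 (adjusted p of 0.0216 to 0.0387). Without ITNK 3 the difference was -1.01 for Chac1 and 0.75 for Trib3, and neither passed. For Asns ITNK 2 and 4 overlap LAK, and ITNK 1 and 3 lie below it.

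A few genes were on or off by array in every group. In 7 genes the arrays of ITNK, of LAK and of DN3 each fell into 2 pairs at least 1 log2 unit apart. Gdpd3, a phosphodiesterase, read 9.04, 4.46, 8.43 and 4.59 in ITNK, against 7.44, 5.16, 4.76 and 7.51 in LAK, and 9.15, 5.65, 9.53 and 4.84 in DN3. Gbp2b, an interferon-inducible GTPase, read 8.05, 4.54, 7.04 and 4.90 in ITNK, against 5.88, 4.31, 4.52 and 6.08 in LAK, and 6.41, 4.38, 6.81 and 4.48 in DN3. Both were high on ITNK 1 and 3, on LAK 1 and 4 and on DN3 1 and 3. Gpn2, a small GTPase, read 6.04, 6.02, 8.84 and 8.78 in ITNK, against 8.35, 8.27, 5.62 and 5.68 in LAK, and 5.55, 5.43, 8.05 and 8.23 in DN3, and was high on ITNK 3 and 4, LAK 1 and 2 and DN3 3 and 4. Bsdc1 was high on the same arrays as Gpn2 and Twistnb on the opposite ones. Gm5801 and B3galt6 were high on ITNK 1 and 4 and on LAK 2 and 4. None of these genes passed between ITNK and LAK. Their values show that arrays of 1 group can differ by over 4 log2 units at single genes, more than most differences between the groups.

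**Figure D5:**
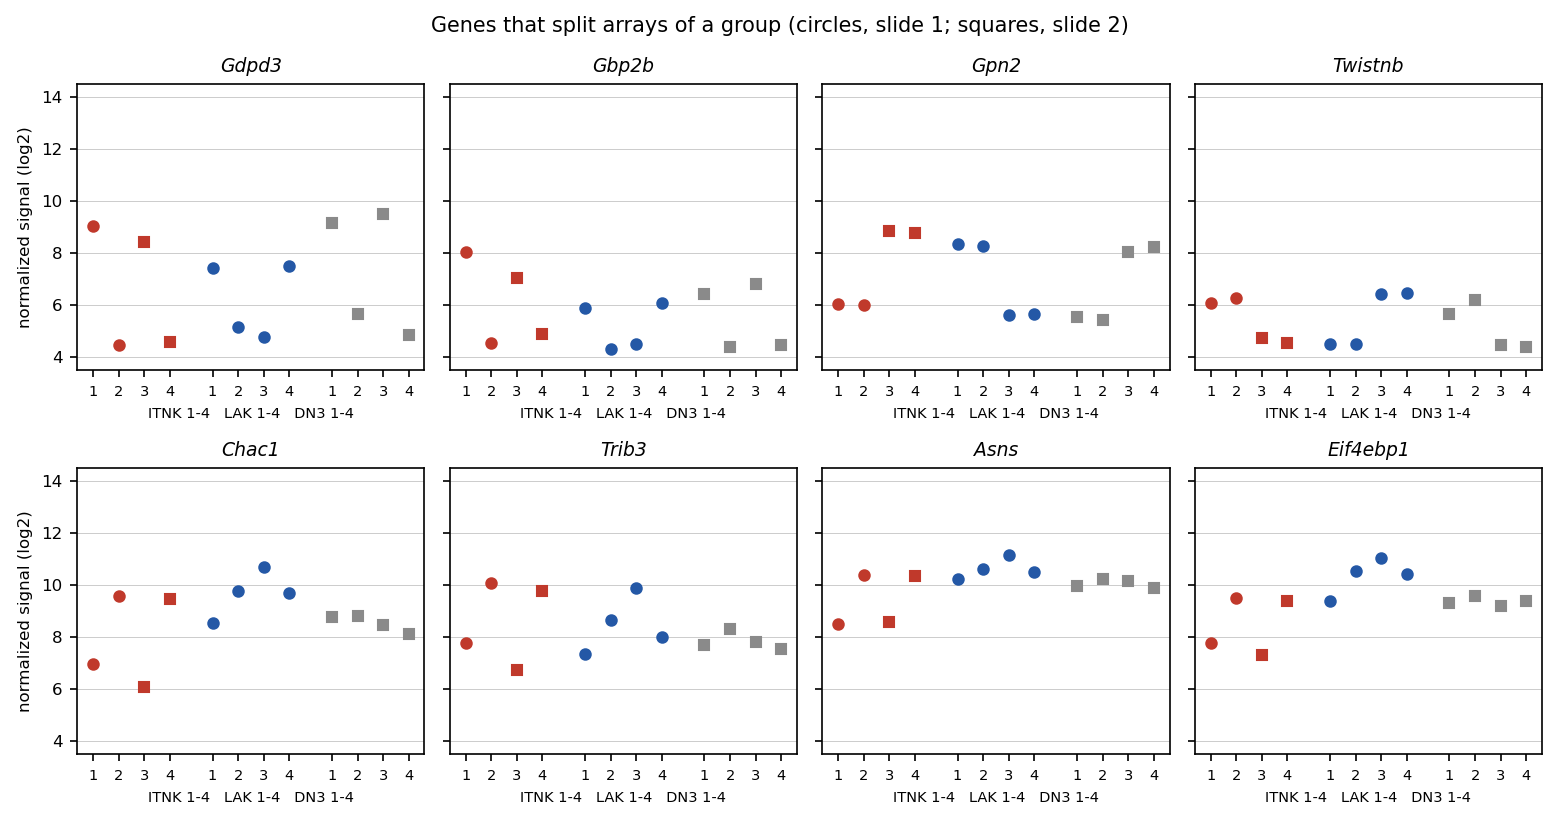
Normalized signal (log2, vertical axis) on each array of 4 genes that fall into 2 levels within every group (upper row) and 4 genes of the amino acid response (lower row), ITNK in red, LAK in blue, DN3 in grey, with circles for slide 1 and squares for slide 2. Upper-row genes sit at a high or a low level on each array, and lower-row genes are high on ITNK 2 and 4.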

How the data were processed

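The members, gene lists and tests were chosen with earlier results of these data known. After the files were seen the Ly49 list was widened to every gene with the Klra prefix, Trgv5 and Trgv7 joined the gamma-delta list, and a duplicate entry was dropped. The list for amino acid shortage was written after its split between arrays had been seen.

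The authors deposited scanner signals per probe as intensity on a linear scale, not normalized between arrays per the file headers, with a detection fraction that is 1 minus the detection p-value. They also deposited processed log2 values of unstated normalization, which were used only as an alternative. Their medians are nearly equal on all arrays, and the method that made them is not given in the sources used here. Scanner software is not given either.

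Of 45281 probes, 7 held no value. GEO's platform annotation gave 1 symbol for 34880 probes, several for 18 and none for 10376, and symbols were updated through the Entrez identifier for 34802. Signals were background corrected and quantile normalized with neqc (offset 16) in limma 3.58.1 under R 4.3.3. Probes with detection p under 0.01 on at least 4 of 12 arrays were kept (13571, of which 1804 lacked a single symbol). The brightest probe stood for each of 8100 genes. Of 2688 genes with several detected probes, 13 had probes called in opposite directions. Group means of all 12 arrays were fitted with limma lmFit and eBayes, 2-sided, with Benjamini-Hochberg adjustment over 8100 genes, and genes passed at an adjusted p under 0.05.

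Named genes were the 15 largest differences each way without overlap and with the same direction within slide 1, up to 6 passing members a list, all members of lists of 12 or fewer, members that did not pass, Bcl11b and the cell type markers. Genes that split within groups or moved between slides were named after their values were seen. Bounds average, per array, the higher of the lowest signal of a detected probe and the gene's own. The alternatives covered background correction, scaling, the authors' values, the detection filter, the choice of probe, slide, replicate number and each array left out. The fit was checked on simulated data. Promoters are RefSeq sequences around each gene's start.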

Additional observations from a re-analysis of the deposited data

Results flagged for a closer look

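In each named gene the highest or lowest of the 4 ITNK and of the 4 LAK arrays was compared with the others by Dixon's ratio. Of 542 groups tested 25 (4.61%) exceeded the critical value, and chance flags about 1 in 20. All values are log2 signals.

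The widest gaps were single low arrays. Psmd8, a proteasome subunit, read 4.84 on ITNK 2, where the other ITNK arrays read 8.69 to 8.86, and 4.61 on LAK 3, where the other LAK arrays read 8.58 to 8.72. Supt16, a histone chaperone subunit, read 6.37 on LAK 4 and 9.12 to 9.43 on the others. These 2 genes were picked after their values were seen.

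Among ITNK arrays, ITNK 1 stood high for Bcl11b (9.10, others 8.38 to 8.49), Ets2 (7.44, others 7.21 to 7.24) and Vim (12.28, others 12.05 to 12.09), and low for Kir3dl2 (6.11, others 6.97 to 7.13). ITNK 2 stood low for Cst7 (7.85, others 8.29 to 8.35) and high for Sit1 (7.66, others 7.41 to 7.43). ITNK 3 stood low for B2m (12.91, others 13.02 to 13.04). ITNK 4 stood high for Bdh2 (5.15, others 4.45 to 4.52), Ctsg (4.77, others 4.31 to 4.38) and Tyk2 (8.50, others all 8.27), and low for Otof (7.10, others 7.44 to 7.50).

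Among LAK arrays, LAK 1 stood high for Il12rb2 (7.02, others 6.49 to 6.55) and Trat1 (4.67, others 4.40 to 4.41) and low for Serpinb6b (6.64, others 7.27 to 7.37). LAK 2 stood high for Bcl2l11 (9.60, others 8.94 to 9.06), Ifit2 (6.53, others 6.16 to 6.23) and Itga2 (4.99, others 4.58 to 4.62). LAK 3 stood high for Klrb1c (7.92, others 7.54 to 7.58) and Unc13d (8.32, others 8.12 to 8.15). LAK 4 stood low for Itga1 (5.73, others 6.24 to 6.30) and Cxcl9 (4.38, others 4.59 to 4.63) and high for Marcks (6.74, others all 6.68).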

How the results depend on the processing

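No named gene that passed in either of 2 settings changed direction between them. Of 271 named genes 252 kept their call in every alternative that tested them and with each array left out, and the exceptions are given in the report beside each gene or in the account of slide 1. Filters on detection left 123 of the named genes (all 12 arrays) and 264 (at least 4 of the 8 ITNK and LAK arrays) to test. Of the 2727 calls, 63.5% (within slide 1) to 100% (detection on at least 4 of the 8 ITNK and LAK arrays) of those tested again were kept. With probes detected on all 12 arrays 1787 genes passed, 921 higher in ITNK, and calls among list members numbered 205, against 342. Within slide 1, 839 were lower. The count of calls at 2-fold or more was 722, and fell to 393 without background correction, 388 with normexp at offset 50, 377 with the authors' values and 269 with probes detected on all 12 arrays. The strict filter tests 5846 genes in place of 8100, and for the other 3 settings the cause was not tested. Calls within slide 1 numbered 956 (without ITNK 1) to 2096 (without LAK 3) with each array left out, and without ITNK 1 or 2 the lone ITNK array was assumed to vary like the LAK arrays.

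Replicate numbers did not pair the samples: deviations of same-numbered ITNK and LAK arrays correlated at 0.0895, -0.0227, -0.339 and -0.0918. With a replicate block 2558 genes passed, 723 of them at 2-fold, and no named gene changed its call. The number of arrays, slide 2 without LAK arrays and dim probes near background limit the precision.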
